A study of Mus musculus with 45 samples.

Results

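The proteasome subunit genes of mouse heart are the 44 genes, of 23284 listed, whose symbols start with Psma, Psmb, Psmc, Psmd, Psme or Psmf and end in a number. They were taken by symbol alone, and 3 of them, the immunoproteasome genes Psmb8, Psmb9 and Psmb10, were set apart from the other 41. The series holds 45 samples of heart tissue, of which 6 are poly(A) RNA-seq libraries in 5 groups, and the other 39 were not analysed here. Adult heart has 2 libraries. Embryonic heart at E12.5, E12.5 heart with the genotype Gata4 KO, heart under the stress banding and heart under the stress sham have 1 each. Banding is surgery that constricts a large artery and so loads the heart, and sham is the operation without the band. The labels give no vessel, no duration, and no age for these 2 libraries. The alleles Gata4fbio, Rosa26BirA, cTNTcre and Gata4flox are named for every sample alike, so which library carried which allele is not known from them. Cre under the cardiac troponin T promoter acts in cardiomyocytes, and other cells of such a heart would keep Gata4. RNA was pooled before library preparation, and no label states whether separate animals gave the 2 adult libraries. Below, the later hearts are the adult, banding and sham libraries, and a heart so counted is 1 library, not 1 animal. A p-value here reflects the spread of 2 libraries alone, and that spread may be technical.

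The proteasome is the protease that degrades proteins marked with ubiquitin. Its 20S core is a barrel of outer alpha rings, which gate the channel, and inner beta rings, of which the subunits encoded by Psmb6, Psmb7 and Psmb5 cut the chain (caspase-like, trypsin-like and chymotrypsin-like activity). The 19S cap sits on the core. Its base holds the ATPases that unfold substrates, and its lid holds the enzyme that removes ubiquitin. Interferon induces Psmb9, Psmb10 and Psmb8, whose products replace those of Psmb6, Psmb7 and Psmb5 and change the peptides made for MHC class I. The heart depends on the proteasome to remove damaged contractile proteins and to remodel its muscle under load.

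Levels are log2(FPKM + 1) as deposited, FPKM being fragments per kilobase of transcript, scaled to the mapped reads of the library. Mapped reads ran from 12086929 to 21056784 a library. Reads on listed genes were 83.6% and 83.9% of mapped reads in the adult libraries, 75.9% in E12.5 beside 76.8% for the library labelled Gata4 KO, against 58.0% in banding and 55.6% in sham. Gata4 was not lower in the library labelled Gata4 KO (6.13, 4159 reads) than in E12.5 (5.93, 4290 reads). The files do not show which part of the gene these reads cover, so the label could not be checked, and the library is named by it throughout. The cardiomyocyte markers were high in all 6 libraries, with a summed level of 29977 to 52780 FPKM over 10 genes. Summed liver (6 genes) and lung (4 genes) markers stayed at or under 2.90 FPKM. In heart tissue, fewer cells of a type and less RNA per cell cannot be told apart.

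Promoters of a subunit and its replacement are shown because they belong to the pairs that differed most between E12.5 and the later hearts. They are from RefSeq (GRCm38.p6), cover 250 bases and read 5′ to 3′ along the gene. Capitals mark the motif match, which is a description and not a shown binding site. Psmb8 lies at chr17:34197945-34198194 on the plus strand, and its capitals match a gamma-activated site (TTCNNNGAA) that starts 97 bases before the transcription start. Psmb5, at chr14:54617996-54618245 on the minus strand, has the core of an antioxidant response element (TGACNNNGC) 47 bases before the start. Psmb9 lies at chr17:34187331-34187580 on the minus strand, with a CCAAT box on the opposite strand 8 bases before the start. Psmb6, at chr11:70525107-70525356 on the plus strand, has the antioxidant core 9 bases before the start.
Psmb8: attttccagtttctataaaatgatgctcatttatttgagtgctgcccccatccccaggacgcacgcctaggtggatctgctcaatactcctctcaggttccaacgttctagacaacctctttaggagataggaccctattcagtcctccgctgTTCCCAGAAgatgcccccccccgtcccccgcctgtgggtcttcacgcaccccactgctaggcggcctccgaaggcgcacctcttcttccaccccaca
Psmb5: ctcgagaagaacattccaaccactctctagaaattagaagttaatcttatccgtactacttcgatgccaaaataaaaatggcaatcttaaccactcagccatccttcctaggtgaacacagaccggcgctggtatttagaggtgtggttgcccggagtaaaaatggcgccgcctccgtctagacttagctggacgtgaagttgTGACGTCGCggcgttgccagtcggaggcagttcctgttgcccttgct
Psmb9: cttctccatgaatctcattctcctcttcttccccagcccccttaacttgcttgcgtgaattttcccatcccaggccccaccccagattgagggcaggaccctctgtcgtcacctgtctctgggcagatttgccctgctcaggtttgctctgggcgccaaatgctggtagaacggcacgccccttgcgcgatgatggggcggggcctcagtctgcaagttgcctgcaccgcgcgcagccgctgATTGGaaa
Psmb6: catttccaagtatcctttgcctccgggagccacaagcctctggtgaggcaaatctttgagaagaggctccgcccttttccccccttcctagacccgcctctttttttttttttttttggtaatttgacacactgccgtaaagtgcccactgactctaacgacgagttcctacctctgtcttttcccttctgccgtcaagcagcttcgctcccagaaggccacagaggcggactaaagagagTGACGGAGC

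Of the 44 members, 37 had at least 1 RefSeq promoter window from 250 bases before to 50 after the start, 40 windows in all. Both strands were searched, and the 4 motifs were counted separately whether or not they overlapped. TGACNNNGC was in 6 member windows (15%), those of Psmb5, Psmb6, Psmc6, Psmd12, Psmd9 and Psme4, and in 12.4% of all 32851 windows. CCAAT was in 14 (35%) against 37.4%. GAAA-NN-GAAA, the core of the interferon-stimulated element, was in 4 (10%), those of Psmb3, Psmd4, Psmd9 and Psme1, against 3.44%. TTCNNNGAA was in 2 (5%), those of Psmb8 and Psmd2, against 8.30%. Psmb8 and Psmb9 both neighbour Tap1, a subunit of the peptide transporter for MHC class I, and Tap2 follows Psmb8. Psmb5 neighbours Psmb11, and only Emc9 lies between Psme1 and Psme2 among protein-coding genes.

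**Figure D1:**
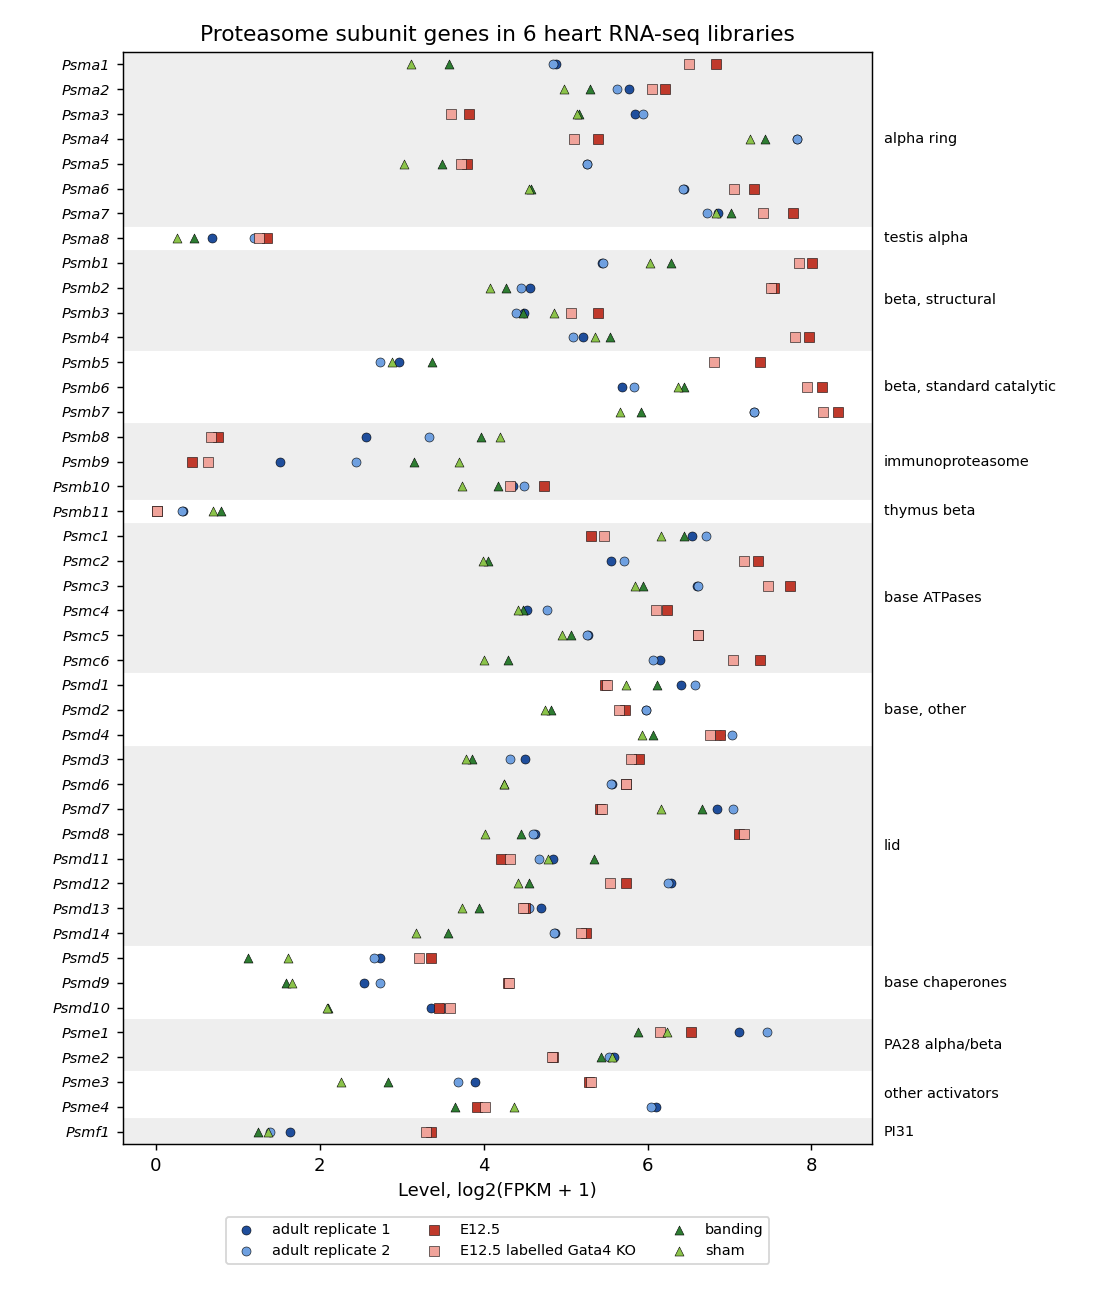
Level of each of the 44 proteasome subunit genes, as log2(FPKM + 1) on the horizontal axis, with 1 symbol per library and genes ordered by role. The 7 beta-ring genes Psmb1 to Psmb7 are highest in the 2 E12.5 libraries (squares), while Psma3, Psma4, Psmb8 and Psmb9 are lowest there.

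Proteasome subunit genes did not move as a block between E12.5 and adult heart. All 7 beta-ring genes and 5 of the 6 base ATPase genes were lower in adult, while Psma3, Psma4 and Psma5 of the alpha ring, the ATPase gene Psmc1 and the activator gene Psme4 were higher. By limma, with Benjamini-Hochberg adjustment over 12658 genes at 0.05, 11 of the 43 members tested were higher in adult, where 23.4% of all genes were, and 23 were lower, where 48.4% were. These shares (25.6% and 53.5% of the members) are near the background. The median difference was -0.51 over the members and -0.51 over all genes, with members running from -4.52 (Psmb5) to 2.43 (Psma4). A rule of size, at least 1 apart on the log2 scale with the higher group at 5 FPKM or more, called 8 members higher (11.8% of all genes) and 17 lower (27%). The test has 1 residual degree of freedom and assumes that the lone E12.5 library varies like the adult pair. The split depends on scaling: with libraries scaled to their upper quartile, 17 members were higher and 17 lower, and all genes went from 2965 higher and 6123 lower to 4316 and 4159. The median over all genes was -0.05, 0.02 and -0.27 under the 3 other scalings tried, and that of the members lay within 0.12 of it in each. All 11 higher calls and 17 of the 23 lower calls were kept under all 3.

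**Figure D2:**
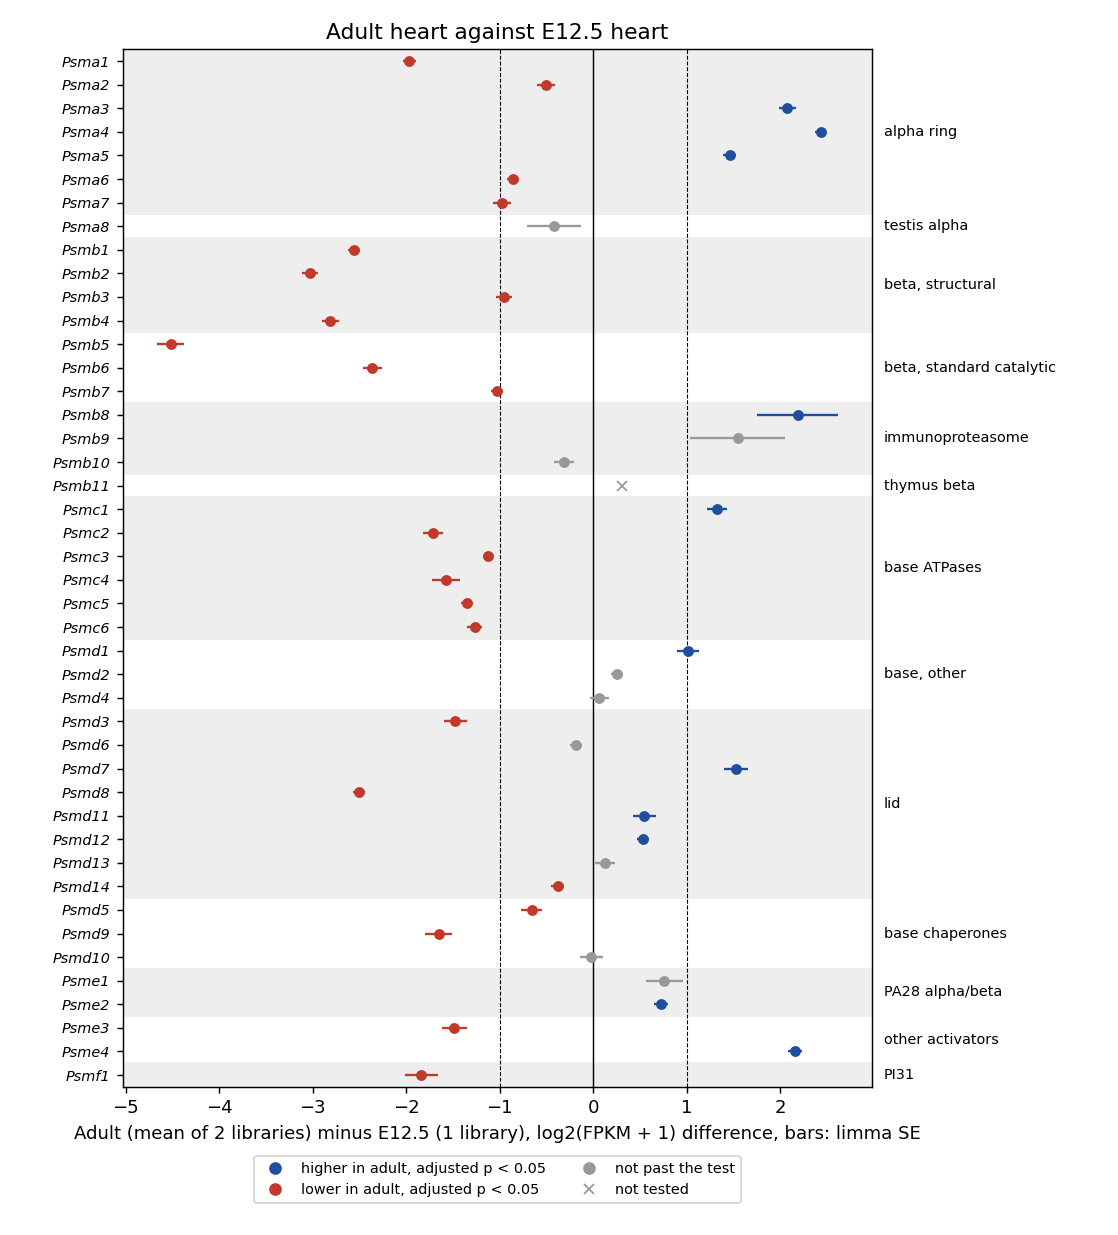
Difference of each member between adult (mean of 2 libraries) and E12.5 (1 library) on the log2(FPKM + 1) scale, with the limma standard error as bars and dashed lines at a difference of 1. Blue members are higher and red members lower in adult at an adjusted p under 0.05. The beta-ring genes sit left of 0, from -4.52 for Psmb5 to -0.95 for Psmb3, and the alpha-ring genes fall on both sides.

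The 7 alpha-ring genes, whose products form the gate and the docking face of the core, split 3 against 4. Psma4 stood at 7.82 and 7.82 in adult, 5.39 in E12.5 with 5.11 for the library labelled Gata4 KO, against 7.43 in banding and 7.25 in sham. Psma3 stood at 5.84 and 5.95 in adult, 3.82 in E12.5 with 3.61 for the library labelled Gata4 KO, against 5.16 in banding and 5.14 in sham. For both genes the 4 later hearts lay above both E12.5 libraries, with no overlap. Adult minus E12.5 was 2.43 (SE 0.06, limma adjusted p = 0.00398) for Psma4 and 2.08 (SE 0.09, adjusted p = 0.00437) for Psma3. Psma5 was 5.26 and 5.27 in adult, 3.80 in E12.5 with 3.73 for the library labelled Gata4 KO, against 3.49 in banding and 3.02 in sham. It was higher in adult than E12.5 by 1.46 (SE 0.07, adjusted p = 0.00479), but its banding and sham levels lay below both E12.5 libraries.

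The other alpha-ring genes were lower in adult than in E12.5. Psma1 stood at 4.88 and 4.85 in adult, 6.83 in E12.5 with 6.51 for the library labelled Gata4 KO, against 3.57 in banding and 3.11 in sham, and fell by 1.97 from E12.5 to adult (SE 0.07, limma adjusted p = 0.00398). Psma6 was 6.45 and 6.44 in adult, 7.30 in E12.5 with 7.06 for the library labelled Gata4 KO, against 4.58 in banding and 4.56 in sham. Psma7, at 6.86 and 6.73 in adult, 7.77 and 7.41 at E12.5, 7.02 in banding and 6.84 in sham, varied least of these 4 across the later hearts. Under the 3 other scalings the calls of Psma6 and Psma7 were not all kept, though their sign was. Psma2 was 5.77 and 5.63 in adult, 6.21 and 6.05 at E12.5, 5.29 in banding and 4.98 in sham. Its adult difference of -0.51 (adjusted p = 0.0321) became 0.07 under upper-quartile scaling, so its direction rests on the scaling as deposited. Psma8, the alpha subunit of the testis proteasome, was near the bottom of the range, at 0.69 and 1.20 in adult (13 and 27 reads), 1.36 and 1.26 at E12.5 (56 and 42 reads), 0.46 in banding and 0.26 in sham (9 and 4 reads). Its difference did not pass the test (adjusted p = 0.282).

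All 4 structural beta-ring genes were lower in adult heart, and for Psmb1, Psmb2 and Psmb4 the difference was 6.02-fold to 8.50-fold in FPKM. Psmb2 stood at 4.57 and 4.46 in adult, 7.55 in E12.5 with 7.51 for the library labelled Gata4 KO, against 4.28 in banding and 4.07 in sham. Psmb4 stood at 5.22 and 5.09 in adult, 7.97 and 7.80 at E12.5, 5.54 in banding and 5.36 in sham. Psmb1 was 5.45 and 5.45 in adult, 8.01 and 7.84 at E12.5, 6.29 in banding and 6.03 in sham. In these 3 genes the 4 later hearts lay below both E12.5 libraries. Adult minus E12.5 was -3.03 for Psmb2 (SE 0.09), -2.81 for Psmb4 (SE 0.09) and -2.56 for Psmb1 (SE 0.06), each with a limma adjusted p of 0.00398. Psmb3 changed least, at 4.49 and 4.39 in adult, 5.39 and 5.07 at E12.5, 4.48 in banding and 4.86 in sham. Its difference of -0.95 (SE 0.09, adjusted p = 0.00940) passed the test as deposited but not under each other scaling.

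Psmb5, which encodes the chymotrypsin-like subunit, had the largest difference of the members between adult and E12.5. It stood at 2.97 and 2.74 in adult, 7.37 in E12.5 with 6.81 for the library labelled Gata4 KO, against 3.37 in banding and 2.88 in sham. Behind these levels lay 75 and 61 reads in adult, 3020 and 1726 at E12.5, 114 in banding and 67 in sham. All 4 later hearts were far below both E12.5 libraries, and the difference of -4.52 (SE 0.15, limma adjusted p = 0.00398) is 26.5-fold in FPKM. Psmb6, the caspase-like subunit gene, was 5.69 and 5.84 in adult, 8.13 and 7.95 at E12.5, 6.45 in banding and 6.37 in sham, and fell by 2.36 from E12.5 to adult (SE 0.10, adjusted p = 0.00443). Psmb7, the trypsin-like subunit gene, was 7.30 and 7.29 in adult, 8.32 and 8.14 at E12.5, 5.92 in banding and 5.67 in sham, and fell by 1.03 (SE 0.06, adjusted p = 0.00569). RefSeq names pseudogenes after Psma5, Psmb5, Psmb6 and Psmb7. The counting could split reads between such copies and the gene, so the levels of these 4 are uncertain to that extent. Pseudogenes under other names were not searched for, so the remaining members may have copies too.

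The immunoproteasome genes ran the other way from the standard catalytic genes in 2 of 3 cases. Psmb8 stood at 2.57 and 3.33 in adult, 0.76 in E12.5 with 0.68 for the library labelled Gata4 KO, against 3.97 in banding and 4.20 in sham. It rested on 76 and 137 reads in adult, 18 and 13 at E12.5, 252 in banding and 256 in sham. Its lowest later heart was above both E12.5 libraries, and it was higher in adult by 2.18 (SE 0.43, limma adjusted p = 0.0338). With no filter on low genes the same difference had an adjusted p of 0.132, so the call is lost there, while over the other alternatives the adjusted p ran from 0.0202 to 0.0363. Psmb9 stood at 1.52 and 2.44 in adult (19 and 44 reads), 0.44 in E12.5 (6 reads) with 0.64 for the library labelled Gata4 KO (8 reads), against 3.15 in banding (89 reads) and 3.70 in sham (117 reads). Its groups did not overlap either, but the difference of 1.54 (SE 0.51) did not pass the test (adjusted p = 0.0883). Psmb10 varied less than these 2 across the libraries, at 4.36 and 4.50 in adult, 4.74 and 4.33 at E12.5, 4.18 in banding and 3.73 in sham. Its difference of -0.31 did not pass the test (adjusted p = 0.0916) and took the other sign under median-of-ratios and upper-quartile scaling. Psmb11, the thymus-type catalytic gene, was at 0.33 and 0.32 in adult (14 and 13 reads), 0.02 in each E12.5 library (1 read each), 0.80 in banding (44 reads) and 0.70 in sham (32 reads). It was too low to be tested, and Foxn1, a defining gene of thymus epithelium, was at 0 in all 6 libraries.

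A ratio of 2 genes within a library does not depend on how that library was scaled. The FPKM ratio of Psmb8 to Psmb5 was 0.722 (95% counting interval 0.518 to 1.01) and 1.60 (1.17 to 2.20) in the adult libraries, 0.00424 (0.00251 to 0.00672) in E12.5 beside 0.00536 (0.00285 to 0.00920) for the library labelled Gata4 KO. In banding it was 1.57 (1.26 to 1.98) and in sham 2.72 (2.07 to 3.62). The replacement thus stood above the standard chymotrypsin-like gene in 3 of the 4 later hearts. In adult replicate 1 the interval included 1, and at E12.5 the replacement was far below. The lowest later ratio was 134.5-fold above the highest E12.5 ratio. Psmb9 to Psmb6 was 0.0370 and 0.0785 in adult, 0.00127 in E12.5 with 0.00226 for the library labelled Gata4 KO, against 0.0912 in banding and 0.147 in sham, a gap of 16.3-fold between the lowest later and the highest E12.5 ratio. Psmb10 to Psmb7 was 0.125 and 0.139 in adult, 0.0807 in E12.5 with 0.0676 for the library labelled Gata4 KO, against 0.289 in banding and 0.247 in sham, and its gap was 1.55-fold. All 3 ratios were higher in every later heart than in either E12.5 library. Both genes of the Psmb8 to Psmb5 ratio differed. Psmb5 was 24.1-fold and 29.1-fold below E12.5 in adult, 17.6-fold in banding and 25.9-fold in sham, and Psmb8 was 7.05-fold and 13.0-fold above E12.5 in adult, 21.0-fold in banding and 24.8-fold in sham. Without molecular identifiers, these intervals hold counting error and nothing else. They do not cover reads shared with the pseudogenes that RefSeq names after Psmb5, Psmb6 and Psmb7.

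**Figure D3:**
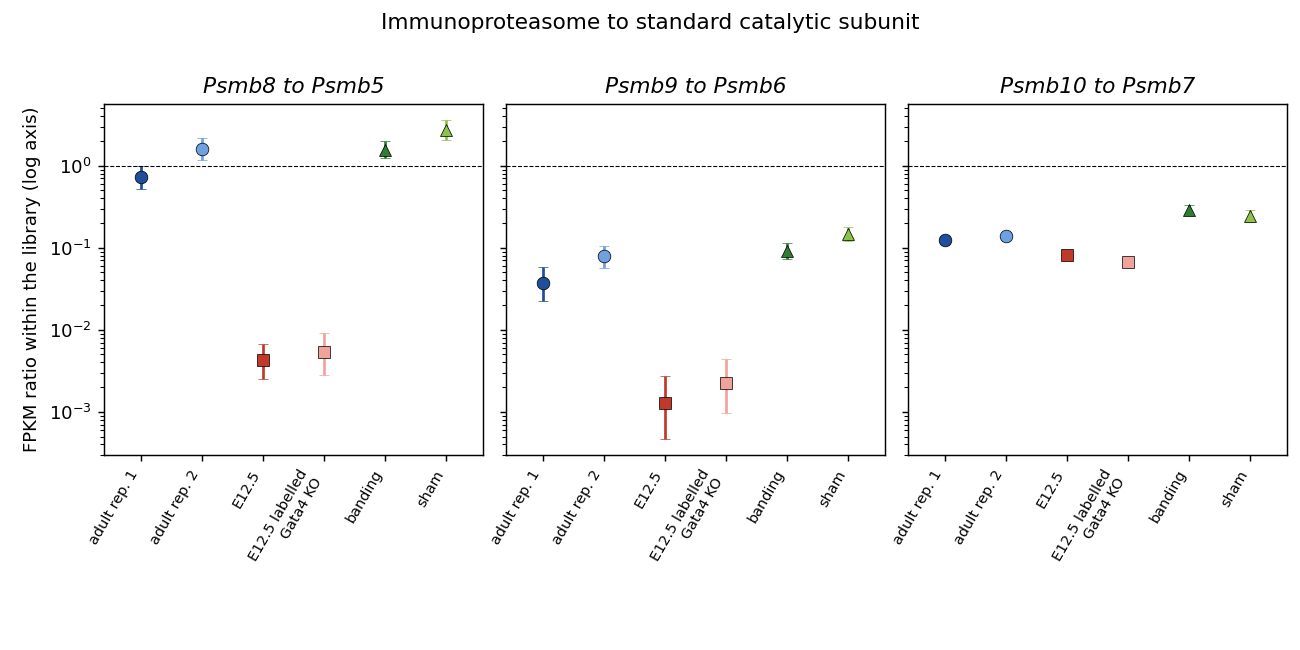
FPKM ratio of each immunoproteasome gene to the standard catalytic gene it replaces, in each library, on a log axis, with 95% counting intervals as bars and a dashed line at 1. Ratios for Psmb8 to Psmb5 lie between 0.722 and 2.72 in the 4 later hearts and at or under 0.00536 in the 2 E12.5 libraries.

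Markers of immune cells and interferon response moved with Psmb8 and Psmb9 between the adult libraries, but not between all libraries. Psmb8 and Psmb9 were lower in banding than in sham, as were 8 of 13 interferon-response genes tested (45.6% of all genes). In that comparison 8 of 10 macrophage and leukocyte markers tested were higher in banding (54.4% of all genes). Adult replicate 2 was above replicate 1 by 0.76 for Psmb8 and 0.92 for Psmb9, the largest differences between the adult libraries among the members, whose median absolute difference was 0.14. No member passed the rule of size between them, where 0.138% of all genes were higher in replicate 1 and 0.147% lower. In the same pair, 13 of 15 interferon-response genes, 9 of 10 genes of antigen processing and 10 of 12 macrophage and leukocyte markers were higher in replicate 2, where 56.7% of all genes were. So were all 8 fibroblast, all 6 smooth muscle and pericyte and 7 of 8 endothelial markers, but 2 of 10 cardiomyocyte markers, so the shift was not limited to immune genes. Summed levels of the 15 interferon-response genes were 87.9 and 124.0 FPKM in adult, 23.1 and 25.3 FPKM at E12.5, 74.8 FPKM in banding and 87.4 FPKM in sham, so the E12.5 libraries were lowest. The 12 macrophage and leukocyte markers summed to 49.9 and 74.0 FPKM in adult, 52.3 FPKM in E12.5 with 85.7 FPKM for the library labelled Gata4 KO, against 90.7 FPKM in banding and 75.5 FPKM in sham, with each above 0 in every library, so their E12.5 and later ranges overlapped. The 9 lymphocyte markers summed to 0.205 to 3.54 FPKM, with 1 to 7 of them at 0 in each library. The part of these cells or of interferon in the 2 immunoproteasome genes was not tested.

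In the base of the 19S cap, 5 of the 6 ATPase genes were lower in adult and 1 was higher, and all 6 calls were kept under each scaling. Psmc1 stood at 6.55 and 6.71 in adult, 5.31 in E12.5 with 5.47 for the library labelled Gata4 KO, against 6.45 in banding and 6.16 in sham, above both E12.5 libraries in all 4 later hearts. Its difference was 1.32 (SE 0.11, limma adjusted p = 0.00811). Psmc2 was 5.56 and 5.71 in adult, 7.35 and 7.18 at E12.5, 4.05 in banding and 3.99 in sham, and it fell by 1.71 (SE 0.10, adjusted p = 0.00582), the most of the ATPases. The remaining ATPase genes encode subunits of the same ring, which unfolds the substrate, and fell by 1.12 to 1.58. Psmc4 was 4.53 and 4.78 in adult, 6.23 and 6.11 at E12.5, 4.49 in banding and 4.42 in sham. Its call (limma adjusted p = 0.00983) was lost with no filter on low genes (adjusted p = 0.05125), with 0.0101 to 0.0140 over the other alternatives. Psmc5 was 5.28 and 5.26 in adult, 6.62 and 6.62 at E12.5, 5.07 in banding and 4.95 in sham. Psmc6 was 6.15 and 6.06 in adult, 7.38 and 7.04 at E12.5, 4.30 in banding and 4.01 in sham. All 3 were lower in the 4 later hearts than in either E12.5 library. Psmc3, the most abundant ATPase gene at E12.5, was 6.61 and 6.61 in adult, 7.73 and 7.47 at E12.5, 5.95 in banding and 5.84 in sham.

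The base scaffold gene Psmd1 was higher in adult, at 6.40 and 6.58 in adult, 5.48 in E12.5 with 5.51 for the library labelled Gata4 KO, against 6.12 in banding and 5.74 in sham (difference 1.01, SE 0.12, limma adjusted p = 0.0130). With no filter on low genes the Psmd1 call was lost (adjusted p = 0.0597), while over the other alternatives its adjusted p ran from 0.00444 to 0.0172. Psmd2, the other large scaffold gene, and Psmd4, a ubiquitin receptor, did not pass the test. Psmd2 was 5.98 and 5.99 in adult, 5.73 and 5.65 at E12.5, 4.82 in banding and 4.75 in sham (adjusted p = 0.05004, just above the threshold). Psmd4 was 6.88 and 7.03 in adult, 6.89 and 6.76 at E12.5, 6.06 in banding and 5.93 in sham (adjusted p = 0.596). Among the 3 chaperones that assemble the base, Psmd9 fell from 4.29 in E12.5 (4.31 for the library labelled Gata4 KO) to 2.54 and 2.73 in adult, with 1.59 in banding and 1.67 in sham (difference -1.66, SE 0.14, adjusted p = 0.00875). Psmd5 was 2.74 and 2.67 in adult, 3.36 and 3.21 at E12.5, 1.13 in banding and 1.62 in sham, and its difference of -0.66 passed the test (adjusted p = 0.0262) as deposited but not under each scaling. Psmd10 was 3.36 and 3.51 in adult, 3.46 and 3.59 at E12.5, 2.10 in banding and 2.08 in sham, with no call in adult against E12.5 (adjusted p = 0.878).

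The 8 lid genes went both ways, 3 higher and 3 lower in adult by limma. Psmd7 stood at 6.84 and 7.04 in adult, 5.42 in E12.5 with 5.45 for the library labelled Gata4 KO, against 6.66 in banding and 6.16 in sham, above both E12.5 libraries in every later heart (difference 1.53, SE 0.12, adjusted p = 0.00802). Psmd8 ran opposite, at 4.62 and 4.60 in adult, 7.12 and 7.17 at E12.5, 4.46 in banding and 4.02 in sham, and fell by 2.51 (SE 0.07, adjusted p = 0.00398). Psmd3 was 4.51 and 4.32 in adult, 5.89 and 5.80 at E12.5, 3.86 in banding and 3.79 in sham, and fell by 1.48. Psmd14, the enzyme that removes ubiquitin from the substrate, was 4.87 and 4.85 in adult, 5.24 and 5.18 at E12.5, 3.57 in banding and 3.18 in sham. Its difference of -0.38 (adjusted p = 0.0284) became 0.11 under median-of-ratios and 0.18 under upper-quartile scaling. Psmd11 and Psmd12, both structural lid genes, were higher in adult by 0.55 and 0.53. Psmd12 was 6.28 and 6.25 in adult, 5.73 and 5.55 at E12.5, 4.56 in banding and 4.42 in sham, and Psmd11 was 4.85 and 4.67 in adult, 4.21 and 4.32 at E12.5, 5.34 in banding and 4.78 in sham. The Psmd11 call (limma adjusted p = 0.0415) was lost with no filter on low genes (0.121) and with the library labelled Gata4 KO in place of E12.5 (0.0632), and its adjusted p ran from 0.0130 to 0.0493 over the other alternatives. Psmd6 was 5.56 and 5.55 in adult, 5.74 and 5.73 at E12.5, and 4.24 in both banding and sham. Psmd13 was 4.71 and 4.55 in adult, 4.50 and 4.48 at E12.5, 3.94 in banding and 3.74 in sham. Neither passed the test (adjusted p = 0.0968 for Psmd6 and 0.385 for Psmd13).

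The activators, which bind the end of the core in place of the 19S cap, also divided. Psme4, the gene of the large activator PA200, stood at 6.11 and 6.05 in adult, 3.92 in E12.5 with 4.02 for the library labelled Gata4 KO, against 3.65 in banding and 4.37 in sham. It was higher in adult by 2.16 (SE 0.07, limma adjusted p = 0.00398), a level that neither operated heart reached. Psme3, which encodes the nuclear activator PA28 gamma, was 3.90 and 3.69 in adult, 5.28 and 5.31 at E12.5, 2.83 in banding and 2.26 in sham, and fell by 1.49 (SE 0.13, adjusted p = 0.00922). Psme1 and Psme2 encode the interferon-inducible PA28 alpha and beta. Psme1 was 7.12 and 7.46 in adult, 6.53 and 6.15 at E12.5, 5.88 in banding and 6.23 in sham, and its difference of 0.76 did not pass the test (adjusted p = 0.0562). Psme2, at 5.59 and 5.54 in adult, 4.84 and 4.83 at E12.5, 5.43 in banding and 5.57 in sham, rose by 0.72 (adjusted p = 0.0107) and lay above both E12.5 libraries in every later heart. Psmf1, the gene of the proteasome-binding protein PI31, was low, at 1.64 and 1.39 in adult, 3.36 and 3.30 at E12.5, 1.24 in banding and 1.37 in sham, and fell by 1.84 (SE 0.18, adjusted p = 0.0102).

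Across all 4 later hearts and both E12.5 libraries, 9 members lay above every E12.5 value, where 17.4% of all genes did, and 25 lay below, where 53.0% did. With the adult pair alone, 15 lay above (31.3% of all genes) and 25 below (59.1%). These counts describe groups that differ in some cell-type markers as well as age. The 8 red-cell markers summed to 0.521 and 1.31 FPKM in adult against 21255 and 64667 FPKM at E12.5. The embryonic globin genes Hbb-y (13.7 and 15.3 on the log2 scale) and Hba-x (12.8 and 14.3) led at E12.5 and were at 0 in adult. The adult globin genes Hba-a1 and Hba-a2 were at 0 in all 6 libraries, so this sum cannot compare red-cell content between ages. The 4 adipocyte markers summed to 904 and 989 FPKM in adult against 8.47 and 8.38 FPKM at E12.5. Nearly all of this was Fabp4, at 9.82 and 9.95 on the log2 scale in adult and 3.23 and 3.19 at E12.5. Adipoq, Plin1 and Cfd reached at most 0.97 in any library, so the sum does not show adipocyte content. The part of cell makeup in the proteasome differences was not tested.

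Members together made up 0.625% and 0.636% of the summed FPKM of all listed genes in adult (mean 0.630% ± 0.008, SD, n = 2), 0.873% in E12.5 with 0.761% for the library labelled Gata4 KO, against 0.621% in banding and 0.618% in sham. The 4 later hearts lay close to each other and below both E12.5 libraries. Without the 50 highest genes of any library the shares were 0.911% and 0.930% in adult, 1.25% in E12.5 with 1.18% for the library labelled Gata4 KO, against 0.939% in banding and 0.937% in sham, and the order of E12.5 over later hearts held. Levels by role differed unequally. The 4 structural beta-ring genes summed to 123 and 117 FPKM in adult and 733 and 665 FPKM at E12.5, and the 3 standard catalytic genes to 214 and 218 FPKM against 762 and 640 FPKM. By contrast, the 7 alpha-ring genes summed to 603 and 590 FPKM in adult and 628 and 514 FPKM at E12.5. Immunoproteasome genes were 1.17% and 1.51% of the members' FPKM in adult, 0.715% in E12.5 with 0.610% for the library labelled Gata4 KO, against 2.58% in banding and 3.02% in sham.

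**Figure D4:**
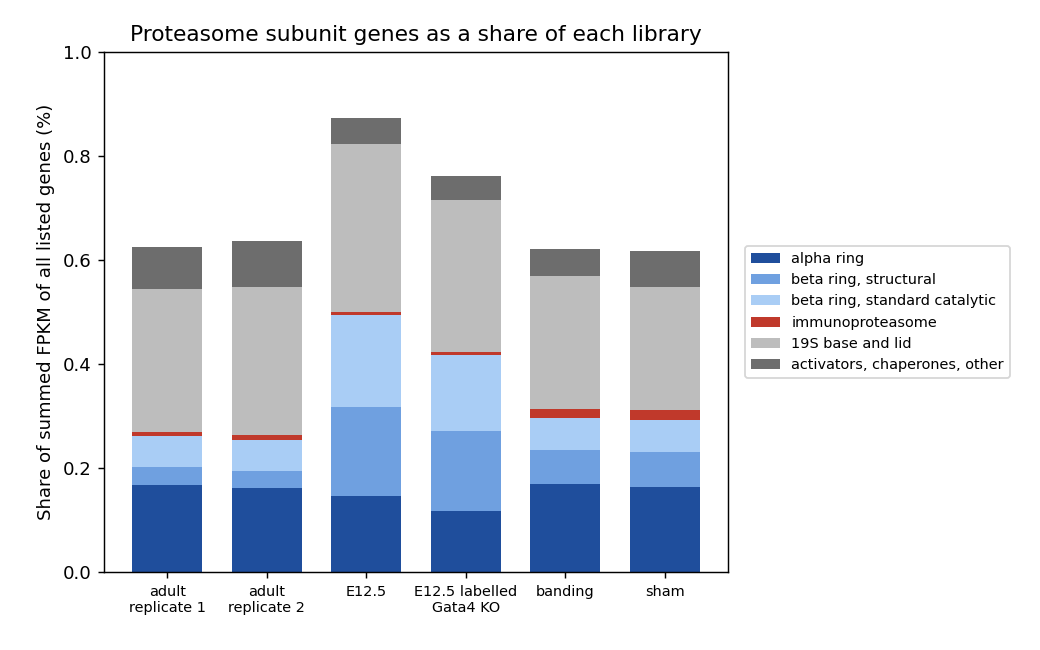
Proteasome subunit genes as a share of the summed FPKM of all listed genes in each library, stacked by role. The bars reach 0.873% in E12.5 beside 0.761% for the library labelled Gata4 KO and 0.618% to 0.636% in the 4 later hearts, and the medium and light blue beta-ring segments and the light grey 19S segment are taller in both E12.5 libraries than in the later hearts.

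The core holds each of its 14 standard subunits in equal number, and the FPKM levels of their genes were far from equal. Psmb5, Psma5 and Psmb7, among the lowest or highest below, have pseudogenes named after them, so the spread is uncertain to that extent. The coefficient of variation of FPKM over these 14 genes was 90.5% and 91.3% in adult, 68.7% in E12.5 with 71.5% for the library labelled Gata4 KO, against 92.7% in banding and 92.1% in sham. The lowest and highest of the 14 were Psmb5 and Psma4 in all 4 later hearts, 33.1-fold and 39.6-fold apart in adult, 18.4-fold in banding and 23.7-fold in sham. At E12.5 the highest was Psmb7, and the lowest Psma5 in E12.5 (24.7-fold) and Psma3 for the library labelled Gata4 KO (25.2-fold). Over all 31 standard subunits of core, base and lid the coefficient was 75.5% and 76.6% in adult, 77.8% in E12.5 with 76.0% for the library labelled Gata4 KO, against 87.5% in banding and 87.3% in sham. Over this wider set adult and E12.5 were close, and the operated hearts were the most uneven.

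The library labelled Gata4 KO differed little from E12.5 in these genes, and no member passed the rule of size, which 0.929% of all genes passed upwards and 0.506% downwards. There is 1 library on each side, so there is no replicate check and no p-value. Of 41 members tested, 32 lay lower, where 53.6% of all genes did, and 9 higher, where 46.4% did. The 95% counting interval of the FPKM ratio lay below 1 for 22 members (28.0% of all genes) and above 1 for 2, Psmc1 and Psme4 (24.0%). All 7 alpha-ring and all 7 beta-ring genes lay lower as deposited, but Psma5 and Psmb2 lay higher when scaled without the 50 highest genes. Psmb5 had the largest difference, -0.56 (FPKM ratio 0.676, interval 0.637 to 0.717), followed by Psmb10 at -0.42 and Psme1 at -0.39. The 3 largest in the other direction were Psmc1 at 0.16, Psmd10 at 0.14 and Psmd11 at 0.10. The median was -0.12 over the members and -0.02 over all genes. Scaling divides the FPKM of every gene in a library by the same factor, so the shift on the log2(FPKM + 1) scale differs for low genes. Without the 50 highest genes, 18 of 41 members lay higher, where 59.3% of all genes did, and the medians were -0.03 over the members and 0.06 over all genes. Intervals then lay above 1 for 9 members (33.4% of all genes) and below 1 for 15 (18.5%). Under all 4 scalings 31 of the 41 members kept 1 sign, and the median of the members lay 0.09 to 0.10 below that of all genes. Markers of other cell types moved in the same comparison. All 8 fibroblast, 7 of 8 endothelial, all 7 macrophage and leukocyte and all 5 red-cell markers tested lay higher in the library labelled Gata4 KO, with medians of 0.95, 0.52, 0.63 and 1.54, and 7 of 10 cardiomyocyte markers lay lower. Their part in the proteasome differences was not tested.

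Banding against sham gave small differences as well. No member passed the rule of size (1.16% of all genes were higher in banding and 0.463% lower), again with 1 library on each side and no p-value. Of 42 members tested, 33 lay higher in banding (54.4% of all genes) and 9 lower (45.6%). The counting interval lay above 1 for 19 members (22.7% of all genes) and below 1 for 5, Psmb3, Psmb9, Psmd5, Psme1 and Psme4 (16.2%). The largest differences upwards on the log2 scale were 0.57 for Psme3, 0.56 for Psmd11 and 0.51 for Psmd7. Their FPKM ratios were 1.62 (interval 1.29 to 2.04), 1.49 (1.35 to 1.66) and 1.43 (1.33 to 1.53). Psme4 had the largest difference downwards, -0.71 on the log2 scale, with a ratio of 0.590 (interval 0.544 to 0.638). Psmb9 differed by -0.55 and Psmd5 by -0.49, the latter on 34 and 51 reads. Among the interferon-inducible members, Psmb9 and Psme1 were lower (-0.55 and -0.35), Psmb10 was higher (0.45), and the intervals of Psmb8 and Psme2 included 1 as deposited. Under median-of-ratios scaling and when scaled without the 50 highest genes, the intervals of Psmb8 and Psme2 lay below 1. The median was 0.13 over the members and 0.03 over all genes. All 7 alpha-ring, 6 ATPase and 8 lid genes lay higher in banding as deposited. Scaled without the 50 highest genes, these became 5, 2 and 5, and 20 of 42 members lay higher in all, where 37.8% of all genes did. Intervals then lay above 1 for 9 members (13.0% of all genes) and below 1 for 7 (28.4%), and the medians were -0.02 over the members and -0.10 over all genes. Under all 4 scalings 29 of the 42 members kept 1 sign, and the median of the members lay 0.08 to 0.10 above that of all genes. The 8 fibroblast markers summed to 748 FPKM in banding and 283 FPKM in sham and all 8 were higher in banding. Their part in these differences was not tested.

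**Figure D5:**
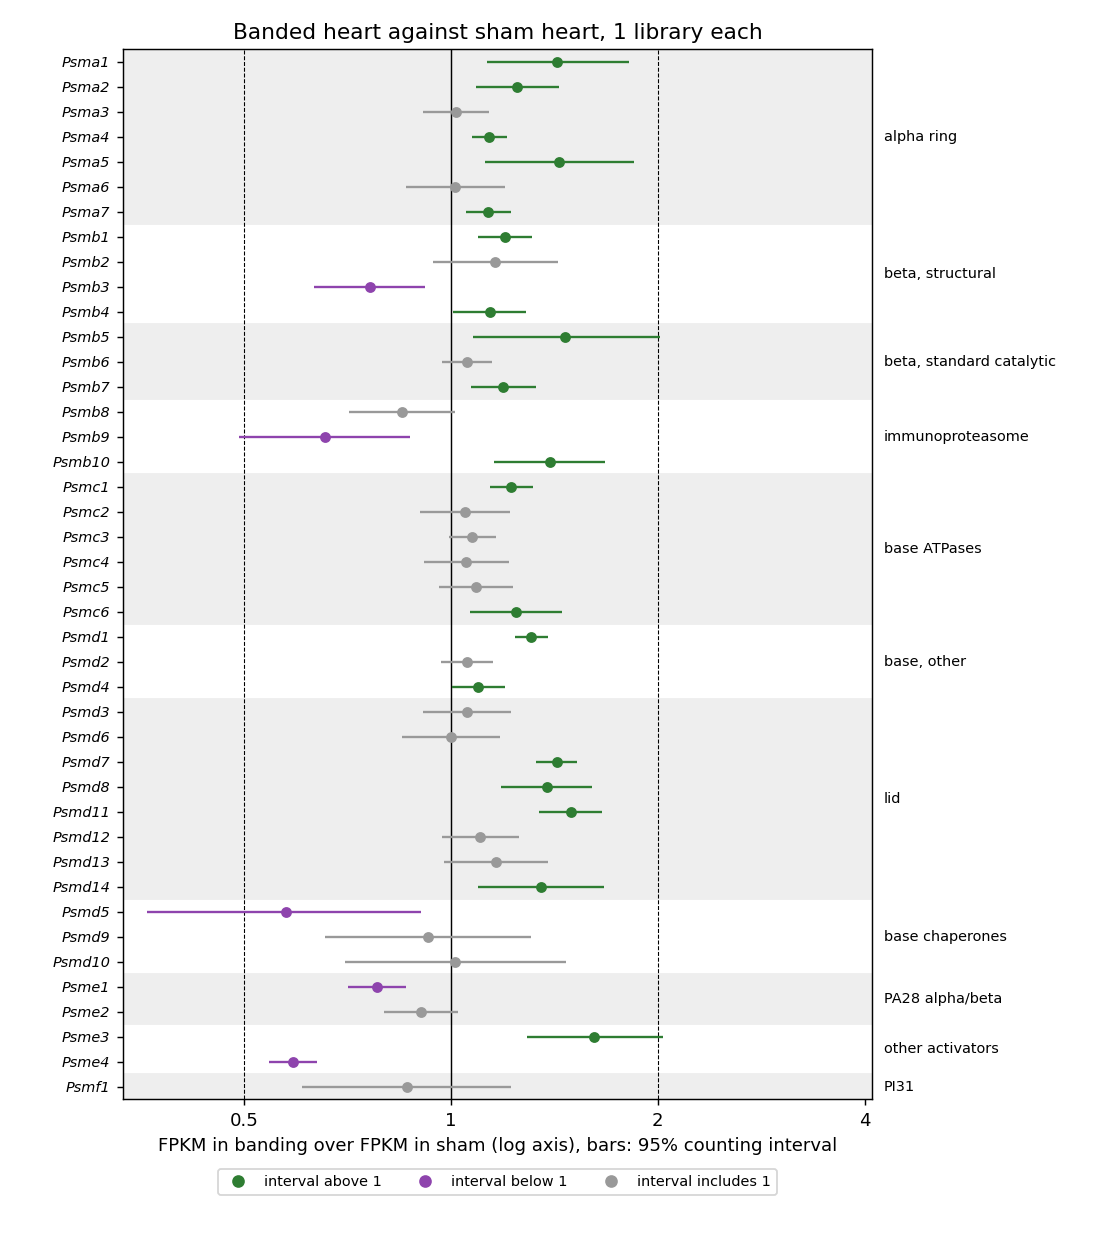
FPKM in banding over FPKM in sham for each of the 42 members tested, on a log axis, with 95% counting intervals as bars and dashed lines at 2-fold. Green members have an interval above 1 (19) and purple members one below 1 (5). Every point lies between the dashed lines, from 0.575 for Psmd5 to 1.62 for Psme3.

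Sham and adult are both hearts without a band. Sham was lower in 16 members and higher in 2 by the rule of size, where 22.2% of all genes were lower and 3.01% higher. The 2 higher genes were Psmb8 and Psmb9, by 1.25 and 1.72. Without adult replicate 1, Psmb9 alone stayed higher. The largest differences downwards were those of Psma5 (-2.24), Psmc6 (-2.10) and Psma6 (-1.88). The median was -0.76 over the members and -0.44 over all genes, beside the lower share of mapped reads on listed genes in sham (55.6%), whose part was not tested. Scaled without the 50 highest genes, 5 members were higher and 5 lower, and the medians were -0.02 over the members and 0.20 over all genes. With banding beside sham, 33 members were higher in both adult libraries than in both operated hearts (58.2% of all genes) and 5 lower, Psmb1, Psmb4, Psmb6, Psmb8 and Psmb9 (24.0%). These 5 are all beta-type genes, a split counted on the values as deposited only. Sham alone lay above the adult mean in 10 of 43 members as deposited (30.8% of all genes). Scaled without the 50 highest genes it did in 20 (56.4%). The largest of these were Psmb9 at 2.40, Psmb8 at 1.95, Psmb6 at 1.36, Psmb1 at 1.32, Psmb3 at 1.15 and Psmb4 at 0.94. Outside the beta-type genes the largest were Psma7 at 0.80, Psmd11 at 0.75 and Psme2 at 0.75. Psmb7, also a beta-type gene, lay lower (-0.89). Batch, operation, age and strain of these libraries cannot be told apart.

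Genes that serve the proteasome were listed by role, with earlier results of these data known. Their counts by limma stand beside 23.4% of all genes higher and 48.4% lower in adult. Of 5 dedicated chaperones that assemble the core, 4 were lower in adult than in E12.5 by limma, with a median difference of -1.41. Psmg3 differed by -2.90, Psmg1 by -2.80 and Psmg2 by -1.41. Among 12 further subunits and shuttle or ubiquitin-trimming partners, 7 were lower and 2 higher, with a median of -0.53, near the -0.51 of all genes. The ubiquitin shuttle gene Ubqln2 fell by 1.81 and the small lid subunit gene Shfm1 by 1.61. The gene of the ubiquitin-activating enzyme, Uba1, fell by 1.67 in adult. Of 6 regulators tested, 3 were higher in adult, namely Vcp by 2.87, Nfe2l1 by 1.43 and Nfe2l2 by 0.59. Nfe2l1 and Nfe2l2 are transcription factors known to induce proteasome genes, and Vcp, an ATPase, extracts proteins for degradation. Nfe2l1 stood at 6.90 and 6.83 in adult, 5.44 in E12.5 with 5.64 for the library labelled Gata4 KO, against 6.49 in banding and 6.17 in sham.

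Of 10 muscle ubiquitin ligases, which mark contractile and other muscle proteins for the proteasome, 5 were higher and 4 lower in adult by limma. Trim54, a sarcomere ligase, rose by 3.79 and Fbxo40 by 3.49, while Fbxl22 fell by 2.99. In antigen processing 5 of 9 genes tested were higher in adult and 1 was lower, with H2-D1 up by 3.62, Tap2 by 2.95 and H2-K1 by 2.65. Of 13 interferon-response genes tested, 10 were higher (23.4% of all genes), with a median difference of 1.78 beside -0.51 over all genes. Iigp1 at 4.28, Gbp2 at 2.84 and Gbp3 at 2.72 led. Like Ifit1, Ifit3 and Irf7, these were under 1 FPKM in E12.5 (0.03 to 0.67 on the log2 scale). They reached the filter through the adult libraries only, as did Tap1 and Tap2, so these counts and the median are description only. Irf8 (-0.20) and Ifi47 (0.29) were too low to be tested. Between banding and sham, all 5 core chaperones and all 12 partner genes lay higher in banding (54.4% of all genes), with medians of 0.38 and 0.20, and none passed the rule of size. Scaled without the 50 highest genes, 4 of 5 and 8 of 12 lay higher (37.8% of all genes). Pomp, the chaperone consumed in core assembly, was 6.88 in banding and 6.22 in sham.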

How the data were processed

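Poly(A) RNA-seq of mouse heart was analysed in 6 libraries. Per the submitters' processing notes the build was mm9, and the tools named are MACS 1.4, BWA 0.5.9, HTSeq 0.5.3, TopHat 1.4 and CASAVA 1.8.2. The sources used here do not give which of them made these files. Libraries were made from 2 µg of pooled RNA, per the labels' protocols. The values deposited by the authors are log2(FPKM + 1), read from the values, 1 for each of 23284 symbols without coordinates; nothing says whether counting used strand. After undoing log2, 98043 of 98043 values above 0 gave whole reads (within 0.001 read), used here for library sizes and exact conditional binomial 95% intervals. Each gene took the shortest length that gave whole reads in every library, so this full recovery is not a check. Reads of a gene that share a common factor could be understated, which would affect the shares of mapped reads and the intervals.

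The test of adult against E12.5 was limma 3.58.1 (R 4.3.3, mean-variance trend, Benjamini-Hochberg over genes that reach 1 FPKM in 1 or more of its libraries; prior degrees of freedom 1.535). Log2 differences use a pseudocount of 1, which understates changes of low genes. Other comparisons used the rule of size. The limma step was tested on simulated data. All members were described, those past the rule of size, the 3 largest each way and the immunoproteasome set with values in every library, and up to 3 genes of each pathway list with the largest differences. Some genes of these lists are not reported here. Members, lists and motifs were chosen with earlier results of these data known. All 44 members matched RefSeq symbols.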

Additional observations from a re-analysis of the deposited data

How the results depend on the processing

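Across 8 settings of limma for adult against E12.5, 8 members were higher and 16 lower in every one. Upper-quartile scaling raised the number higher from 11 to 17, and by size the number lower went from 17 to 11 under both median-of-ratios and upper-quartile scaling. Of members called by limma, the directions that reversed were Psmd14, to 0.11 under median-of-ratios and 0.18 under upper-quartile scaling, and Psma2, to 0.065 under upper-quartile scaling. Of those not called, Psmd6 and Psmd10 changed sign under all 3 other scalings and Psmb10 under those 2. The 4 calls lost under no filter that the scalings kept are those of Psmb8, Psmd1, Psmd11 and Psmc4. Leaving out either adult replicate gave 6 to 8 members higher and 17 to 18 lower by size, a value with no test.

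For sham against adult, the number higher by size went from 2 to 4, 5 and 5, and the number lower from 16 to 10, 10 and 5, under median-of-ratios, upper-quartile and without-the-50-highest scaling. At 1.5-fold 26 were lower. Leaving out either adult replicate gave 1 to 2 higher and 14 to 17 lower. At 1.5-fold, 1 member (Psme4) was lower in banding than in sham. Counting intervals above 1 for the library labelled Gata4 KO went from 2 members to 1 under median-of-ratios scaling and 9 without the 50 highest genes, and for banding against sham from 19 to 9 in the latter setting.

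Without the 50 highest genes the members' share of FPKM was 0.911% and 0.930% in adult, 1.25% in E12.5 with 1.18% for the library labelled Gata4 KO, against 0.939% in banding and 0.937% in sham. The coefficient of variation over 31 instead of 14 subunits was 75.5% and 76.6%, 77.8%, 76.0%, 87.5% and 87.3% in the same order. These follow from the genes counted; for the other changes the cause was not tested. Of the remaining values, 385 kept their direction and call, 43 lost the call and 14 gained it. No paired analysis was possible because only adult has more than 1 library. Depth limits Psma8, Psmb8, Psmb9 and Psmb11, which rest on at most 56 reads in each E12.5 library.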
